A study of Mus with 2 samples.

Results

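The genes described here belong to families known for handling foreign compounds and vitamin A, and were read in the lining of the distal ileum. They are the genes whose symbols begin with Ces, Cyp, Ugt, Ugdh, Gst, Sult, Aldh, Adh, Rdh, Dhrs, Rbp or Akr, each followed by a family number or letter where the family has one. Of the 8989 genes listed in any of 5 cell type sheets, 73 met this rule. They comprised 4 carboxylesterases, 17 cytochromes P450, 19 alcohol dehydrogenases, aldehyde dehydrogenases and aldo-keto reductases, 11 retinoid or short-chain dehydrogenases and retinol binding proteins, 2 glucuronidation genes, 14 glutathione transferases and 6 sulfotransferases. The symbols chose the genes among those listed, and every listed gene was found in 10.0% or more of the cells of one group or the other. Some members have other roles, and the word enzymes below also covers the retinol binding proteins and pseudogenes among them. The rule was set with earlier results of these data known.

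The study asked whether loss of nociceptors, neurons that sense painful or harmful stimuli, bears on gene expression in epithelial cells of the distal ileum. One sample came from Nav1.8Cre+/-DTA+/- mice, in which the Nav1.8 driver, active in nociceptors, switches on diphtheria toxin A, and the other from Nav1.8Cre-/-DTA+/- littermates. Both genotypes therefore carried the toxin allele, and both were at baseline with no treatment. Each sample pooled 3 mice, which were 8 weeks old and male by the deposited library sheet. Sorted epithelial cells were profiled by inDrops, which tags the RNA of single cells in droplets, and the library sheet gives 10000 cells in 4 sub-libraries for the control and 8500 in 3 for the Cre-positive sample.

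With 1 pooled sample per genotype there was no replicate and no test of genotype. The sheets compare a group 1 of cells with a group 2 without naming the genotypes or stating a common order across sheets, so no value below gives the direction of nociceptor loss. Each sheet holds, per gene, a log2 fold change of mean expression (group 1 over group 2) and the detection of the gene, as a percentage of the cells of either group. The sources used here do not give the cells or molecules behind these values, so no interval could be set on them. Every listed gene reached a detection of 10.0% or more in one group or the other. A gene under that level in 1 group was thus listed through the group where it was detected more. Each sheet listed most defining markers of its own cell type (24 of 27 for enterocytes, 7 of 8 for stem, 9 of 9 for goblet, 9 of 9 for enteroendocrine and 7 of 8 for tuft cells), but listing alone did not set the types apart. Enterocyte markers were listed in every sheet, 25 of 27 of them for tuft cells, and goblet markers likewise, 7 of 9 of them for enterocytes and for stem cells. Detection differed more: the median over listed goblet markers was 95.9% and 97.3% (groups 1 and 2) in goblet cells, against 32.1% and 45.6% in enterocytes. The median over listed enterocyte markers was 66.2% and 62.3% in enterocytes, against 22.2% and 28.6% in tuft cells. No marker of T cells, B cells, myeloid cells or fibroblasts was listed in any sheet.

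Intestinal detoxification is classically described in phases. Carboxylesterases, cytochromes P450 and the alcohol, aldehyde and aldo-keto enzymes expose or create reactive groups. Glucuronidation, sulfation and glutathione conjugation then attach a soluble group, and efflux pumps move the product back to the lumen. Vitamin A uses related enzymes: retinol binding protein 2 holds retinol in the absorptive cell, dehydrogenases of the Rdh and Dhrs families and class I alcohol dehydrogenases interconvert retinol and retinal, and aldehyde dehydrogenase 1 enzymes make retinoic acid.

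Most of these families were listed only in part. The rule fits 257 protein-coding genes of the mouse RefSeq annotation (GRCm38.p6), of which 71 were listed here, and Gstp-ps and Cyp2b27-ps are pseudogenes. Carboxylesterases contributed 4 of 19 annotated genes, cytochromes P450 16 of 99, glucuronidation genes 2 of 23 and sulfotransferases 6 of 21, while glutathione transferases contributed 13 of 23. A total of 23 genes were listed in all 5 cell types, 10 in 4, 5 in 3, 12 in 2 and 23 in 1. Of the 17 P450s, 8 were in a single sheet.

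Several of the listed genes are neighbours in the genome (coordinates are of GRCm38, the build called mm10). Ces2a (chromosome 8, 104734003 to 104741634), Ces2c (104847068 to 104854483) and Ces2e (104926260 to 104934672) form a row on chromosome 8. Gstp1 (chromosome 19, 4035411 to 4037912) and Gstp2 (4040288 to 4042221) are adjacent on chromosome 19, and Gstp-ps lies on chromosome 1 (192073736 to 192076444). Sult1b1 (chromosome 5, 87513327 to 87538195) adjoins Sult1d1 (87554650 to 87569006). The sources used here do not say how reads shared between near-identical copies were counted, so the separate values of the Gstp, Gstm, Akr1c, Sult2a, Cyp4f and Ces2 genes are uncertain.

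The table of cluster markers shows where in the epithelium these enzymes stood out. It compares each of 8 clusters of cells with all other cells and no entry had a log2 fold change under 0.25 or a detection under 25.0% in its cluster. Of its 2096 entries, 18 were for these enzymes (0.859%), covering 16 genes in 5 clusters. Clusters 3, 4 and 5 had none, and 57 of the 73 genes were not in this table.

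Cluster 1, which held 23 of the 27 enterocyte markers, had 7 of the 18 entries, 2.92% of its 240 markers. Rbp2 led them in the authors' deposited table, with 54.3% of the cluster and 8.9% of other cells positive, at 0.88 on the log2 scale. Cyp4f14, a P450 that hydroxylates leukotriene B4, followed with 67.1% against 34.7% (0.70) in the authors' deposited table. The esterases Ces2a, Ces2e and Ces2c, the cholesterol sulfotransferase Sult2b1 and Cyp3a13, a drug-metabolizing P450, were the others, at log2 fold changes between 0.34 (Cyp3a13) and 0.61 (Ces2a) in the authors' deposited table. Esterases, P450s and a sulfotransferase were thus among the markers of the cluster with most enterocyte markers.

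Cluster 0 carried Gsta1, Ces2e and Aldh9a1. Gsta1, an alpha-class glutathione transferase, was found in 26.4% of its cells and 5.3% of others, and stood at 0.32 (log2) in the authors' deposited table. Of the fixed marker lists it shared only 1 gene, an enterocyte marker.

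Cluster 2 held 2 stem, 3 proliferation and 1 tuft marker and had 3 of these enzymes among 761 markers (0.394%). Aldh1b1, a mitochondrial aldehyde dehydrogenase, was detected in 78.9% of the cluster and 35.3% of other cells (0.74) in the authors' deposited table. Gsto1, the omega-class transferase, had 60.9% against 28.8% (0.45), and Adh5, which clears formaldehyde with glutathione, 30.2% against 7.2% (0.33), by the authors' deposited table. No gene marked both cluster 1 and cluster 2.

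Cluster 6, with all 9 enteroendocrine markers, had Gstt1, Gstz1 and Gsto1. Gstz1, which isomerizes maleylacetoacetate in tyrosine breakdown, was in 40.6% of the cluster and 5.6% of other cells (0.54), and the theta-class enzyme Gstt1 in 27.5% against 2.2% (0.67), in the authors' deposited table. All 3 enzymes of this cluster were glutathione transferases.

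Cluster 7, with 6 of 8 tuft markers beside 2 enterocyte markers and 1 stem marker, showed the widest detection gaps of the 18 entries. Adh1, the class I alcohol dehydrogenase that oxidizes ethanol and retinol, was detected in 68.0% of the cluster and 1.1% of other cells (1.51 on the log2 scale), by the authors' deposited table. Aldh2, the mitochondrial enzyme that oxidizes acetaldehyde, reached 88.0% against 28.1% (1.66), the 14th-ranked marker of the cluster's 215 in the authors' deposited table. An alcohol dehydrogenase and an aldehyde dehydrogenase, enzymes of consecutive steps, were both markers of cluster 7. A cluster against the rest of the cells it was drawn from is a description and no test.

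**Figure D1:**
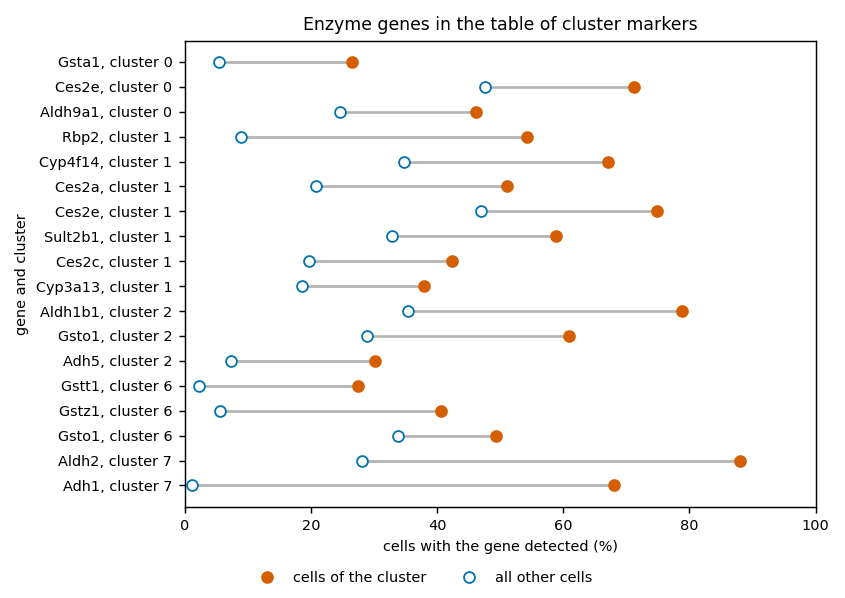
Percentage of cells with each enzyme gene detected in the cluster it marks (filled) and in all other cells (open), for the 18 entries of the marker table. Adh1 in cluster 7 has the widest gap, from 1.1% to 68.0%.

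The cell type sheets place the genes by detection. Among the 23 genes listed in all sheets, the mean detection of both groups was highest in enterocytes for 11, in stem cells for 10, in goblet cells for 1 and in tuft cells for 1. The enterocyte genes were Aldh9a1, Ces2e, Cyp3a13, Cyp4f14, Cyp51, Dhrs11, Sult1d1, Sult2a2, Sult2b1, Ugdh and Ugt2b34. The stem cell genes were 6 alcohol, aldehyde and aldo-keto enzymes (Akr1a1, Akr1c12, Akr1c13, Akr7a5, Aldh18a1 and Aldh1b1) and 4 glutathione transferases (Gsto1, Gstp1, Gstp2 and Gstt2). Among these 23, 3 of the 4 sulfotransferases, both glucuronidation genes and the esterase were best detected in enterocytes, and all 4 glutathione transferases in stem cells. Of the latter, Gstp1 and Gstp2 are near-identical copies and cannot be read as independent. How all genes listed in every sheet fall among the cell types was not counted, so these placings have no background beside them. The sources used here do not give depth by cell type, and its part in these placings was not tested.

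Ces2e was best detected in enterocytes: the authors' deposited table gave 73.9% and 66.6% (groups 1 and 2) in enterocytes, 42.2% and 37.7% in stem cells, 28.2% and 21.4% in goblet cells, 11.1% and 28.6% in tuft cells, and 17.6% and 25.0% in the enteroendocrine sheet. Aldh1b1 has another order in the authors' deposited table, with 81.2% and 87.6% in stem cells, 43.2% and 47.0% in enterocytes, 35.9% and 48.0% in goblet cells, 27.8% and 42.9% in the tuft sheet, and 11.8% and 10.0% in the enteroendocrine one. For Ces2e both groups of enterocytes lay above both groups of every other type, and for Aldh1b1 both groups of stem cells did. Adh1 and Aldh2 in the tuft sheet were at 83.3% and 28.6%, and at 94.4% and 85.7%, in the authors' deposited table. Adh1 was otherwise listed only in enteroendocrine cells, at 17.6% and 20% in the authors' deposited table.

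**Figure D2:**
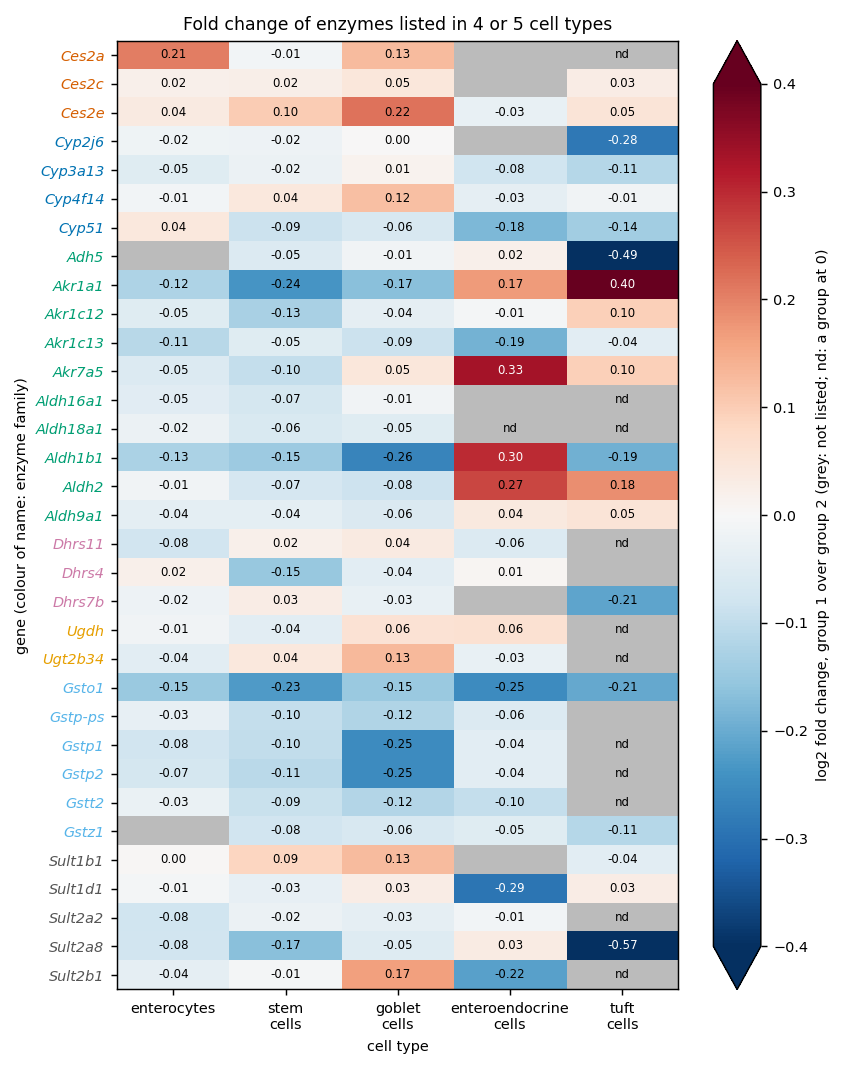
Log2 fold change (group 1 over group 2) of the 33 enzyme genes listed in 4 or 5 cell types, ordered by family, with the value in each field; grey fields are not listed and nd marks a gene with a detection of 0 in a group. Gsto1 is negative in all 5 columns, and enteroendocrine and tuft columns hold the widest values.

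Between the groups, the sheets differed in how far all genes lay from 0, so each count of enzymes is set beside the share over all genes. A log2 fold change past 0.1 either way, a 1.07-fold difference, was counted as past the fold.

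In enterocytes, which absorb nutrients, Ces2a and Rbp2 were higher in group 1, and Gsto1, Aldh1b1, Akr1a1 and Akr1c13 were lower. These were the 2 and 4 of 42 enzymes past the fold (4.76% and 9.52%), where 1.84% of all genes were higher and 14.4% lower. Centred on the median of all genes, the split was 5 higher and 1 lower, where 3.65% and 8.06% of all genes were. The median over the enzymes was -0.02 and over all genes -0.03, and 25 of 42 enzymes lay above that median, as 50% of all genes did. The share of higher genes was above the background and that of lower genes below it, on 6 genes in all.

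The esterase Ces2a, which hydrolyses ester drugs and acylglycerols, had the highest fold change of the module in this sheet. The authors' deposited table gave 0.21 (46.9% of group 1 and 36.7% of group 2), the 13th highest of 3426 genes. Its neighbours were nearly level, Ces2e at 0.04 (73.9% and 66.6%) and Ces2c at 0.02 (38.5% and 36.8%), and Ces1f was at -0.02 in the authors' deposited table. For Rbp2 the authors' deposited table gave 0.12 (31.8% and 24.2%). Aldh1a1, which makes retinoic acid from retinal, was listed in this sheet alone, at 0.09 (21.0% and 16.7%) in the authors' deposited table. Of the other retinoid or short-chain dehydrogenases listed, Dhrs11 was at -0.08 (28.2% and 32.6%), Dhrs7b at -0.02 and Dhrs4 at 0.02 in the authors' deposited table. Rbp2 was thus the sole gene of its family past the fold, and the family's median over 4 genes was 0.0011.

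On the lower side in enterocytes stood genes that were best detected in stem cells. The authors' deposited table gave Gsto1 -0.15 (34.5% and 38.0%), Aldh1b1 -0.13 (43.2% and 47.0%) and the aldehyde reductase Akr1a1 -0.12 (67.2% and 66.3%). For Akr1a1 the detection shares did not share the sign of the fold change. Akr1c13, of the hydroxysteroid dehydrogenase family, was just inside the limit at -0.11, while Cyp4f16 at -0.08 was just outside in the authors' deposited table. On the upper side Rbp2 was the last inside and Cyp2d26, at 0.09, the first outside in the authors' deposited table.

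Detection showed more enzymes on the group 1 side than the fold changes did. In enterocytes 6 of 42 were detected over 5 percentage points more in group 1 (14.3%, against 2.63% of all genes), and 2 were over 5 points less (4.76%, against 9.14%). The 6 were Ces2a, Ces2e, Rbp2, Cyp4f14, Cyp2d26 and Cyp3a25. Of these, Cyp2d26 and Cyp3a25 were listed through group 1 alone, the group in which they were detected more. Cyp4f14 was in 61.9% and 54.7% of cells with a fold change of -0.01, and Cyp3a25 in 10.5% and 5.4% with 0.08, in the authors' deposited table. The 2 on the other side were the pi-class transferases Gstp1 (16.8% and 22.5%) and Gstp2 (16.0% and 21.5%) in the authors' deposited table. For 7 of the 42 enzymes the signs of fold change and detection difference were opposite.

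Of the fixed enterocyte markers, 11 of 24 listed in this sheet were past the fold on the higher side and none on the lower, with a median of 0.09. Their detection ran from 17.0% to 100% in group 1 and from 11% to 100% in group 2, and 23 of 24 were detected more often in group 1. Goblet markers lay the other way in this sheet, with 6 of 7 past the fold on the lower side, a median of -0.18 and detection from 22.5% to 74.7% in group 1 and from 23.4% to 83.8% in group 2. The part of either list in the enzyme values was not tested.

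In the stem cell sheet nearly all genes lay a little under 0, and the enzymes did so less than most. The median was -0.04 over 46 enzymes and -0.07 over all genes, and 32 of 46 lay above the median of all genes, against 50% by definition. Past the fold, 1 enzyme was higher (2.17%, against 0.315% of all genes) and 7 were lower (15.2%, against 31.5%), which centring turned to 6 higher and 2 lower (2.63% and 12.6% of all genes). By detection, 1 was over 5 points more in group 1 (2.17%, against 0.111%) and 11 were over 5 points less (23.9%, against 40.2%).

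Of the 7 lower genes of stem cells, 5 belong to the 10 that, of the 23 listed in all sheets, had their highest detection in this cell type. Sult2a8 and Dhrs4 were the others, and Dhrs4, listed in 4 sheets, was not among the 23. The authors' deposited table gave Akr1a1 -0.24 (80.7% and 89.0%), Gsto1 -0.23 (66.4% and 74.3%) and Aldh1b1 -0.15 (81.2% and 87.6%). Sult2a8, which sulfates bile acids in mouse liver, was at -0.17 with the widest detection gap, 15.9% against 26.7%, in the authors' deposited table. Dhrs4, which reduces retinal, was at -0.15 (25.6% and 33.6%) in the authors' deposited table. Akr1c12 (-0.13) and Gstp2 (-0.11) were the other lower genes, and Gstp1, at -0.10, was just outside the limit in the authors' deposited table.

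Ces2e was the sole enzyme of stem cells past the fold on the higher side. Of the other carboxylesterases, Ces2a was at -0.01 (16.1% and 17.3%) and Ces2c at 0.02 in the authors' deposited table. Ces2e was at 0.10 (42.2% and 37.7%), which was just past the fold and 16th of 5403 genes in the authors' deposited table. Sult1b1, which sulfates phenols and thyroid hormone, was next at 0.09 (23.6% and 18.3%), then Ces1f at 0.05 and Rbp7, a retinol binding protein listed in this sheet alone, at 0.05 (19.3% and 16.3%) in the authors' deposited table. Stem markers were lower in the same sheet (6 of 7 past the fold, median -0.13, detection 6.1% to 44.9% in group 1 and 11.4% to 54.0% in group 2), as were proliferation markers (5 of 7, median -0.17) and goblet markers (6 of 7, median -0.20, detection 24.7% to 74.4% in group 1 and 19.8% to 86.2% in group 2). Enterocyte markers had a median of 0.05, with 4 of 20 past the fold on the higher side. The part of these markers in the enzyme values was not tested.

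In goblet cells, which secrete mucus, 2 of 3 carboxylesterases and 2 of 5 sulfotransferases were past the fold on the higher side, and 5 of 8 glutathione transferases on the lower. Those 5 included Gstp1, Gstp2 and the pseudogene Gstp-ps, whose values are not independent. Of 39 enzymes, 6 were past the fold on the higher side (15.4%, against 3.95% of all genes) and 8 on the lower (20.5%, against 23.1%), or 7 and 5 after centring (8.86% and 12.1% of all genes). The median was -0.03 against -0.04 over all genes, and 21 of 39 were above the latter (50% of all genes). By detection, 5 were over 5 points more in group 1 (12.8%, against 4.17%) and 9 over 5 points less (23.1%, against 27.1%).

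The 6 higher genes of goblet cells came from 4 families. Of these genes, Ces2a and Sult1b1 were listed through group 1 alone, the group in which they were detected more. The authors' deposited table gave Ces2e 0.22 (28.2% and 21.4%) and Ces2a 0.13 (14.4% and 9.2%), and Ces2c was at 0.05 (11.8% and 10.5%). Sult2b1 was at 0.17 (23.1% and 18.0%) and Sult1b1 at 0.13 (13.3% and 7.8%) in the authors' deposited table. The other sulfotransferases were under the limit, Sult1d1 at 0.03, Sult2a2 at -0.03 (12.8% and 15.0%) and Sult2a8 at -0.05 (34.9% and 36.4%) in the authors' deposited table. Ugt2b34, a glucuronosyltransferase, was at 0.13 (20% and 12.2%), and Ugdh, which makes the glucuronate donor, at 0.06 (11.3% and 8.2%) in the authors' deposited table. Cyp4f14 completed the 6 at 0.12 (19.0% and 16.7%), while Gsta4 at 0.08 was just outside, by the authors' deposited table.

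Glutathione transferases made up 5 of the 8 lower genes. Gstp1 was at -0.25 (17.9% and 33.0%) and Gstp2 at -0.25 (17.4% and 33.7%), the widest detection gaps of the module in this sheet, in the authors' deposited table. Gsto1 was at -0.15 (24.6% and 32.7%), Gstp-ps at -0.12 and Gstt2 at -0.12 in the authors' deposited table. The family's median over 8 genes was -0.12, and Gsta4 was its sole member above 0. The values of Gstp1, Gstp2 and the pseudogene Gstp-ps cannot be read as independent. The count of 5 and the family's median may therefore rest on fewer separate signals. Aldh1b1 was lowest of all at -0.26 (35.9% and 48.0%), followed outside the family by Akr1a1 at -0.17 (73.3% and 81.3%) in the authors' deposited table. Dhrs7, at -0.10, was barely inside the limit, and Akr1c13, at -0.09, just outside in the authors' deposited table.

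The goblet sheet listed 22 enterocyte markers, each over the all-gene median, with 17 past the fold and a median of 0.15. Their detection ran from 10.3% to 100% in group 1 and from 4.8% to 99.7% in group 2. Fabp6, the ileal bile acid binding protein of enterocytes, was at 0.79 (100% and 99.7%) in goblet cells in the authors' deposited table. All 6 higher enzymes were detected more often in the enterocyte sheet than in the goblet sheet. Paneth cell markers also differed in this sheet, with 5 of 6 past the fold on the higher side and 1 on the lower, a median of 0.36 and detection from 17.9% to 51.8% in group 1 and from 6.5% to 59.5% in group 2. Lyz1, the Paneth cell lysozyme, was at 0.91 (23.6% and 22.1%) in the authors' deposited table. The part of either list in the enzyme values was not tested.

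**Figure D3:**
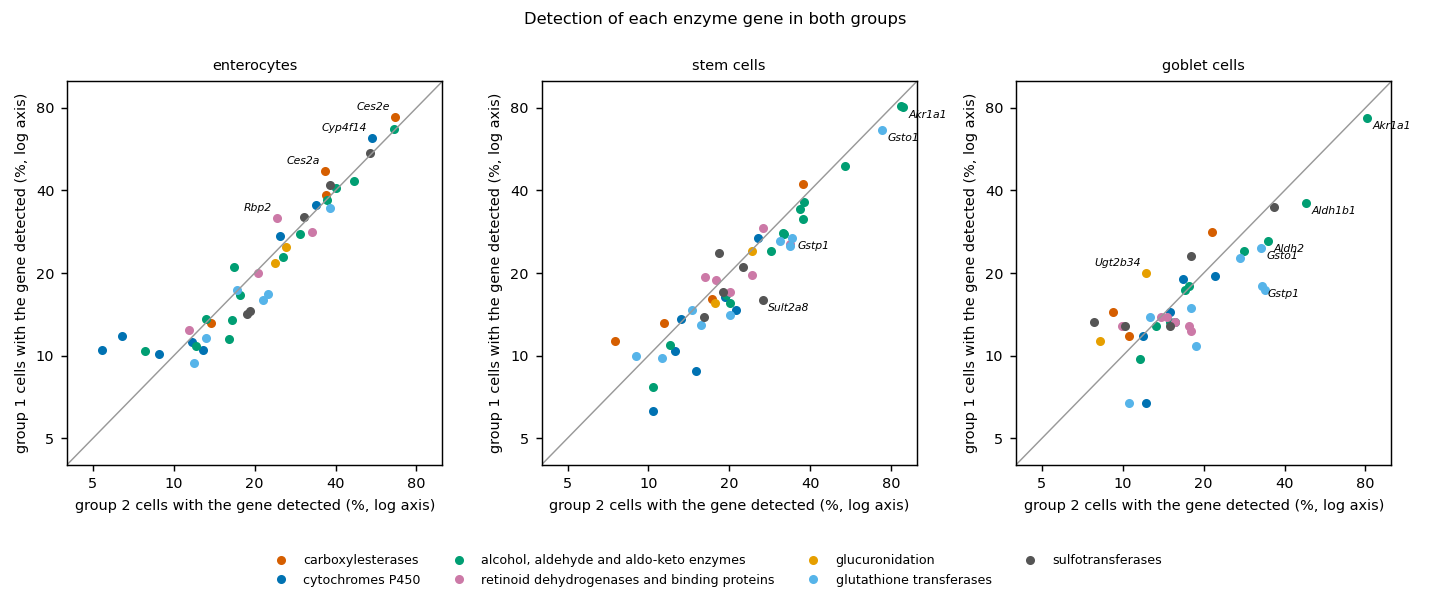
Percentage of cells with each enzyme gene detected in group 1 against group 2 (log axes), in enterocytes, stem cells and goblet cells, coloured by family; the line marks equal detection and the names mark gaps over 7 points, except Dhrs4, Gstp2 and Gstp-ps, which are not labelled. Ces2a, Ces2e, Rbp2 and Cyp4f14 lie above the line in enterocytes, and Aldh1b1 and Gstp1 lie below it in goblet cells.

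The genes can also be set by the cluster they mark. The 7 enzymes of cluster 1 had a median of 0.02 in enterocytes (-0.05 to 0.21), and the 6 of them listed had 0.01 in stem cells (-0.02 to 0.10) and 0.12 in goblet cells (0.01 to 0.22). Of the cluster 2 enzymes, 2 were listed in enterocytes (-0.15 and -0.13), and all 3 in stem cells (-0.23 to -0.05) and goblet cells (-0.26 to -0.01). The ranges of these 2 small sets did not overlap within any of these 3 sheets. The gap was narrow in stem cells, with Adh5 at -0.05 and Cyp3a13 at -0.02, in the authors' deposited table. It was also narrow in goblet cells, with Adh5 at -0.01 and Cyp3a13 at 0.01 in the authors' deposited table. In stem cells Adh5, at -0.05, lay above the median of all genes (-0.07) in the authors' deposited table. How often sets of this size lie apart among all genes was not tested. The ranges overlapped in enteroendocrine cells (cluster 1 from -0.46 to -0.03, cluster 2 from -0.25 to 0.30). In tuft cells cluster 2 (-0.49 to -0.19) lay under cluster 1, whose lowest value was -0.11. The sheets draw on the same 2 samples and are not independent of each other.

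The 10 genes with their highest detection in stem cells were drawn from the 23 listed in all sheets. Of them, 4 were past the fold in enterocytes, 5 in stem cells and 6 in goblet cells, all on the lower side. The medians of the 10 were -0.07, -0.10 and -0.13. Of all genes 14.4%, 31.5% and 23.1% were lower in these sheets. The 10 were chosen by their detection, and 9 of them were at or above the median detection of the stem cell sheet. Shares over genes of like detection were not counted, for these 10 or for the 11 below. In enteroendocrine cells 3 of the 10 were higher and 3 lower (median -0.04), where 16.1% of all genes were higher and 34.8% lower. In tuft cells 4 were higher and 3 lower (median 0.10), where 24.2% and 58.9% of all genes were. Among the 11 with their highest detection in enterocytes, none was past the fold on the lower side in enterocytes, stem cells and goblet cells. On the higher side were 0, 1 and 4, and the medians of the 11 were -0.04, -0.02 and 0.04. Of all genes 1.84%, 0.315% and 3.95% were higher. In enteroendocrine cells none of the 11 was higher and 3 were lower (16.1% and 34.8% of all genes). In tuft cells 3 were higher and 4 lower (24.2% and 58.9% of all genes). The medians of the 11 were -0.03 and 0.03.

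**Figure D4:**
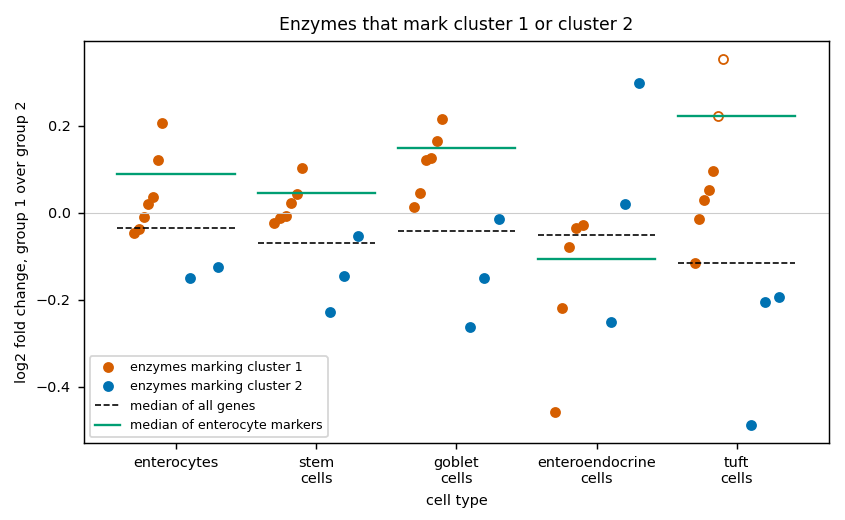
Log2 fold change (group 1 over group 2) of the enzymes that mark cluster 1 (orange) or cluster 2 (blue) in each cell type; dashed lines are the median of all genes, green lines the median of the enterocyte markers, and open circles have a detection of 0 in a group. The 2 small sets do not overlap in enterocytes and, narrowly, in stem cells and goblet cells, and overlap in enteroendocrine cells.

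Enteroendocrine cells, which secrete hormones, gave coarser values: the 40 enzymes took 13 and 16 distinct detection shares (groups 1 and 2). Past the fold, 7 were higher (17.5%, against 16.1% of all genes) and 11 lower (27.5%, against 34.8%), shares close to those of the whole sheet (9 and 10 genes after centring, against 25.7% and 20.7% of all genes). The median was -0.04 against -0.05, and 22 of 40 lay above the median of all genes, against 49.6% of all genes. By detection, 7 were over 5 points more in group 1 (17.5%, against 17.6%) and 13 over 5 points less (32.5%, against 44.1%).

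Among the enzymes, Gstt1, a marker of cluster 6, had the largest difference. By the authors' deposited table it was at -0.60 and in 11.8% of group 1 against 37.5% of group 2. Rbp2 was at -0.46 (11.8% and 20%), Sult1d1, which sulfates catecholamines, at -0.29 (20.6% and 32.5%), Gsto1 at -0.25 (41.2% and 55%) and Sult2b1 at -0.22 (11.8% and 22.5%) in the authors' deposited table. These 5 were the lowest of the well-detected enzymes, and Rbp2 and Sult2b1 had been markers of cluster 1.

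The alcohol, aldehyde and aldo-keto enzymes were balanced, with 4 of 12 higher, 4 lower and a median of 0.0075. On the lower side Akr1c13 was at -0.19 (20.6% and 25.0%) and Akr1c19 at -0.15 (8.8% and 22.5%) in the authors' deposited table. Among the higher ones, Akr7a5, which reduces aflatoxin dialdehyde, was at 0.33 (20.6% and 5.0%), Aldh1b1 at 0.30 (11.8% and 10.0%) and Aldh2 at 0.27 (20.6% and 7.5%) in the authors' deposited table. Akr7a5 and Aldh2 were listed through group 1 alone, the group in which they were detected more, and Akr1c19 likewise through group 2 alone. Akr1a1 was at 0.17, although fewer cells of group 1 (58.8%) than of group 2 (70.0%) had it, by the authors' deposited table. Dhrs7 (0.10) was just inside the limit and Cyp4b1 (0.09) just outside, and on the lower side Adh1 (-0.13) was inside and Cyp4f16 (-0.10) outside, in the authors' deposited table. Cyp2c68 was listed at 0 in group 2 and 11.8% in group 1, and Aldh18a1, which makes the proline precursor, at 0 in group 1 and 12.5% in group 2, in the authors' deposited table. Enterocyte markers had a median of -0.11 in this sheet (5 of 20 past the fold on the higher side and 11 on the lower), with detection from 8.8% to 100% in group 1 and from 5.0% to 100% in group 2. The cell type's own markers differed more widely than the enzymes, with 4 of 9 higher and 3 lower and detection from 20.6% to 85.3% in group 1 and from 25.0% to 90.0% in group 2. The hormone genes Pyy (peptide YY) and Sct (secretin) were at 1.62 (52.9% and 27.5%) and 1.19 (85.3% and 72.5%) in the authors' deposited table. The serotonin synthesis enzyme Tph1 was at -1.27 (20.6% and 45.0%), and the chromogranins Chga and Chgb at -1.22 and -1.21 in the authors' deposited table. The part of these markers in the enzyme values was not tested.

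Tuft cells, the chemosensory cells, had the coarsest values. Of the 50 listed enzymes 21 were at 0 in one group, as were 2815 of all 6765 genes of the sheet. The 50 enzymes took 10 and 5 distinct detection shares. The median of all genes was -0.11 and that of the enzymes 0.01, and 30 of 50 lay above the former (41.2% of all genes). Past the fold, 15 enzymes were higher (30.0%, against 24.2%) and 20 lower (40%, against 58.9%), which became 25 and 4 after centring (32.4% and 23.6% of all genes). By detection, 18 were over 5 points more in group 1 (36.0%, against 25.4%) and 23 over 5 points less (46.0%, against 59.0%).

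Among the 29 enzymes detected in both groups, 3 were higher and 11 lower (10.3% and 37.9%, against 9.54% and 61.5% of such genes), and their median was -0.04. Akr1a1 led at 0.40 (72.2% and 42.9%), then the aldose reductase Akr1b3 at 0.39 (22.2% and 14.3%) and Aldh2 at 0.18 (94.4% and 85.7%) in the authors' deposited table. Sult2a8 was lowest at -0.57 (5.6% and 42.9%), followed by Adh5 at -0.49 (11.1% and 42.9%) in the authors' deposited table. Of these, Sult2a8 was listed through group 2 alone, the group in which it was detected more. Dhrs7b was at -0.21 (11.1% and 28.6%), and Gsto1 was at -0.21 with detection the other way, 44.4% and 28.6%, by the authors' deposited table. Adh1, the marker of cluster 7, was at 0.09 (83.3% and 28.6%) by the authors' deposited table. Enterocyte markers had a median of 0.22 in the tuft sheet (17 of 25 past the fold on the higher side and 5 on the lower), with detection from 0% to 100% in both groups, and Apoa1, an enterocyte apolipoprotein, was at 1.59 (88.9% and 100%) in the authors' deposited table. Alpi, Dpp4, Fabp2, Slc10a2, Slc15a1 and Slc51b were listed at 0 in group 2 and Apob at 0 in group 1, by the authors' deposited table. The part of these markers in the enzyme values was not tested.

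Of the 21 genes at 0 in a tuft group, 12 were at 0 in group 2 and 9 in group 1. Over all genes, 1261 were at 0 in group 2 and 1554 in group 1. Listed at 0 in group 2 were Aldh3a2, a fatty aldehyde dehydrogenase, Gstt2 and Cyp11a1, the side-chain cleavage enzyme of steroid synthesis, each detected in 22.2% of group 1 in the authors' deposited table. Near the limit, the authors' deposited table had Akr1c12 (0.10) just outside on the higher side, where Gstp2, at 0 in group 2, was the nearest inside, and Cyp2f2 at -0.11 just inside and Akr1c13 at -0.04 just outside on the lower.

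**Figure D5:**
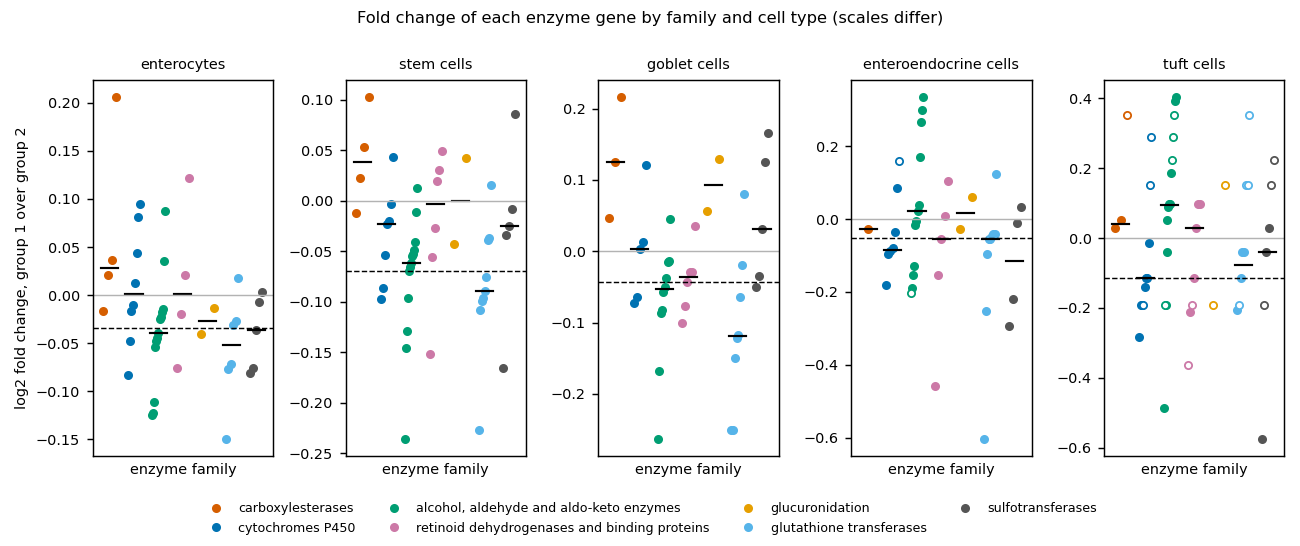
Log2 fold change (group 1 over group 2) of every listed enzyme gene by family in each cell type, with a scale of its own per panel; bars are family medians over genes detected in both groups, open circles have a detection of 0 in a group, and dashed lines are the median of all genes. In goblet cells the carboxylesterases (0.05 to 0.22) lie above the glutathione transferases other than Gsta4.

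Some genes can be set side by side over the sheets, which share their samples. Gsto1 had the values -0.15, -0.23, -0.15, -0.25 and -0.21 in enterocytes, stem, goblet, enteroendocrine and tuft cells in the authors' deposited table. Akr1c13 had -0.11, -0.05, -0.09, -0.19 and -0.04 in the same order in the authors' deposited table. The median of all genes was itself negative in each sheet (-0.03, -0.07, -0.04, -0.05 and -0.11). Gsto1 lay under that median in every sheet, whereas Akr1c13 lay above it in stem and tuft cells. Akr1a1 was at -0.12, -0.24 and -0.17 in the first 3 and at 0.17 and 0.40 in the last 2, in the authors' deposited table. No difference between sheets was tested.

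The other genes of the pathway were read from a fixed list of 63 regulators, transporters, cofactor and redox enzymes and retinoid uptake genes. Past the fold were 1 higher and 8 lower of 29 listed in enterocytes (3.45% and 27.6%, against 1.84% and 14.4% of all genes) and 0 and 12 of 33 in stem cells (0% and 36.4%, against 0.315% and 31.5%). In goblet cells they were 2 and 5 of 27 (7.41% and 18.5%, against 3.95% and 23.1%). Enteroendocrine cells had 5 and 8 of 29 (17.2% and 27.6%, against 16.1% and 34.8%) and tuft cells 8 and 21 of 36 (22.2% and 58.3%, against 24.2% and 58.9%). Their medians were -0.03, -0.04, -0.01, -0.0016 and -0.19, beside -0.03, -0.07, -0.04, -0.05 and -0.11 over all genes.

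Fmo5, a flavin monooxygenase, was the higher gene in enterocytes at 0.14 (33.4% and 26.4%) in the authors' deposited table. The efflux pumps Abcb1a (0.06), Abcc2 (0.07) and Abcg2 (0.04) were all a little above 0 there and under the limit in the authors' deposited table. Of the cofactor and redox enzymes, 6 of 16 listed were lower and 1 higher in enterocytes, 9 of 18 lower and none higher in stem cells, and 3 of 17 lower and 2 higher in goblet cells. Gpx2, the intestinal glutathione peroxidase, was at -0.32 in enterocytes (48.6% and 57.5%), -0.35 in stem cells (81.6% and 89.4%) and -0.32 in goblet cells (37.4% and 48.6%) in the authors' deposited table. Gclm, the modifier subunit of the enzyme that starts glutathione synthesis, was at -0.14, -0.35 and -0.25 in the same 3 sheets in the authors' deposited table. The 2 higher genes of goblet cells were Mgst3, a microsomal glutathione transferase outside the gene rule, at 0.18 (71.3% and 58.5%) and Gpx4, which reduces lipid peroxides, at 0.13 (32.8% and 29.9%) in the authors' deposited table. Gsr, which regenerates glutathione, was at -0.16 in enterocytes, -0.18 in stem cells and 0.02 in goblet cells in the authors' deposited table.

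Among regulators, Cdx2, the intestinal homeobox factor, was at -0.19 in enterocytes (17.6% and 26.7%) and -0.29 in stem cells (30.6% and 46.0%) in the authors' deposited table. Nr1i2, the xenobiotic receptor PXR, was at 0.02 in enterocytes (18.7% and 17.2%) and -0.06 in stem cells (10.0% and 13.9%) in the authors' deposited table. Ahr, the aryl hydrocarbon receptor, was listed in tuft cells alone, at 0 in group 1 and 14.3% in group 2, in the authors' deposited table. Dgat1, which also esterifies retinol, was the sole gene of retinoid uptake and storage listed in enterocytes, at -0.07 (70.4% and 69.2%) in the authors' deposited table.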

How the data were processed

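The authors deposited, for each of 5 cell types, a log2 fold change of mean expression and the fraction of cells of either group with the gene detected, per the file headers, and a table of cluster markers with the same columns. Tools listed in the submitters' processing notes, with no role, are Cell Ranger, DESeq2 (1.30.1) and Seurat, and the build is mm10. Cell filters, doublet treatment, cell type assignment and depth are not given in the sources used here. A deposited library sheet, in other units (cells per sub-library), gave the age and sex of the mice. The deposited p-values were computed over cells and were not used.

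Genes were matched by symbol, and coordinates came from RefSeq (GRCm38.p6), where all 73 symbols matched. Fractions were multiplied into percentages. Enzymes with a log2 fold change past 0.1 either way were counted beside the same share over all genes (Python 3.11.15, pandas 2.3.3; counting was tested on simulated data). Fold changes were finite also for genes at 0 in a group, and how this was done is not stated. The genes and lists were chosen with earlier results of these data known. Full values are given for genes listed in at least 4 sheets, for up to 5 highest and 5 lowest per sheet at or above its median detection, for those nearest the limit and for cluster markers, and for up to 3 genes of each further list; other genes with values were named after those were seen. Alternatives were a limit of 0.25, centring on the median of all genes, a detection floor, detection differences over 5 points and means. Further ones were leaving out some families of near-identical copies and, chosen after seeing the data, leaving out genes at 0 in a group. The families left out were Ces2, Gsta, Cyp2c, Cyp2d, Cyp3a, Ugt2b and Akr1c, while Gstp, Gstm, Sult2a and Cyp4f were kept. The values of 1 enzyme gene are not reported here.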

Additional observations from a re-analysis of the deposited data

How the results depend on the processing

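No paired analysis was possible because each genotype has 1 sample and the values come from no test. With a limit of 0.25, the enzymes past the fold came to 0 in enterocytes and 0 in stem cells, 3 in goblet cells (0 higher, 3 lower), 7 in enteroendocrine cells (3 and 4) and 11 in tuft cells (7 and 4). At that limit, 7 of all 3426 genes were higher and 53 lower in enterocytes, and 1 and 237 of 5403 in stem cells. The counts over all genes were 28 and 125 of 4537 in goblet cells, 118 and 342 of 5287 in enteroendocrine cells, and 446 and 1515 of 6765 in tuft cells. With genes at or above the median detection alone, the enzymes past the fold came to 9 of 14 (goblet), 10 of 19 (enteroendocrine) and 13 of 26 (tuft). The share over all genes at that floor was not counted. In tuft cells the enzymes past the fold came to 14 of 29 when genes at 0 in a group were left out, a setting chosen after seeing the data. Fewer genes enter in both settings. Centred on the median of all genes, the split of higher and lower enzymes became 5 and 1 (enterocytes), 6 and 2 (stem), 7 and 5 (goblet), 9 and 10 (enteroendocrine) and 25 and 4 (tuft). The module's median then changed sign to 0.013 (enterocytes), 0.028 (stem), 0.0079 (goblet) and 0.011 (enteroendocrine), and was 0.12 in tuft cells, because every value shifts by that median. With the detection floor, the medians were -0.028, -0.066, -0.073, -0.029 and 0.041 in the same order. The mean was -0.027 (goblet), -0.047 (enteroendocrine) and -0.0028 (tuft). Without the Ces2, Gsta, Cyp2c, Cyp2d, Cyp3a, Ugt2b and Akr1c genes, the medians were -0.054 (stem), -0.0495 (goblet) and -0.015 (tuft). The Gstp, Gstm, Sult2a and Cyp4f genes were kept in that setting. Without genes at 0 in a group the tuft median was -0.041. The sign of the tuft median changed under 3 of these settings. Depth is unknown, and no interval over cells could be given.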
